A study of Mus musculus with 56 samples.

Results

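The 9 genes described here are the core of the nuclear end of Wnt signalling that remains once Tcf7l2 is set aside: beta-catenin (Ctnnb1), the DNA-binding partners Lef1, Tcf7 and Tcf7l1, and the feedback targets Axin2, Nkd1, Apcdd1, Znrf3 and Rnf43. They were chosen by gene name, all 9 were found as single rows in each of 3 deposited count tables, and they are 9 of 55386 gene IDs listed there. The series holds 56 RNA-seq libraries in 12 groups from mouse barrel cortex at postnatal day 5, made by translating ribosome affinity purification (TRAP), in which EGFP-tagged ribosomal protein L10a of a chosen cell type is pulled down with a GFP antibody. RNA on the pulled-down ribosomes is the bound fraction, and the RNA left behind is the unbound fraction, a proxy for whole tissue. The question was which members differ between cell types, between fractions and after whisker loss.

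Whiskers of the right side were cauterised at postnatal day 4 in every mouse, and the deprived cortex and the control cortex of the opposite hemisphere were taken 24 h later. The first line, Aldh1l1::eGFPL10a, tags astrocytes from an Aldh1l1 transgene, received no tamoxifen and gave 5 deprived and 5 control pieces of cortex. The Cx3cr1-KO line, Cx3cr1CreErt2/CreErt2(Litt) Eef1a1LSL.eGFPL10a/+, tags microglia after Cre recombination, carries the knock-in on both Cx3cr1 alleles and gave both hemispheres of 5 mice. The heterozygous line, Cx3cr1CreErt2/+(Litt) Eef1a1LSL.eGFPL10a/+, tags microglia in the same way with 1 intact Cx3cr1 allele and gave 4 deprived and 4 control pieces. Both microglial lines received 50 µg tamoxifen daily from postnatal day 1 to day 3, so deprived and control cortex of these lines share the drug, the Cre and the lost Cx3cr1 copies. Every piece gave a bound and an unbound library.

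Libraries held 10081228 to 28584281 counts in the astrocyte line, 34622580 to 56689296 counts in the Cx3cr1-KO line and 32772396 to 50712376 counts in the heterozygous line. In bound over unbound RNA, 11 of 12 astrocyte markers were higher in the astrocyte line (median log2 ratio 1.30), and 12 of 12 microglial markers were higher in the Cx3cr1-KO line (2.88) and in the heterozygous line (2.81). Bound Cx3cr1 lay between 0.336 and 1.25 CPM (the count scaled to library size) in Cx3cr1-KO libraries, against 6.52 to 12.4 CPM in heterozygous libraries. In bound over unbound RNA, 10, 6 and 7 of 12 neuron markers were lower in the astrocyte, Cx3cr1-KO and heterozygous lines. Their medians were -0.45, -0.21 and -0.19, and 1, 2 and 2 of them were higher. In heterozygous control libraries they summed to 8437 to 11250 CPM in bound and 8842 to 9974 CPM in unbound RNA. The 12 microglial markers summed to 171 to 266 CPM in the same bound libraries. The part of other cells' RNA in the bound values was not tested. The labels of the heterozygous line hold a conflict: piece 17R is labelled deprived and piece 21L control, although a right-sided lesion deprives the left hemisphere, so the deprivation calls and the members' main deprivation values in that line are also given without these pieces. Mouse 17 gave both of its pieces to the deprived group and mouse 21 both to the control group. Genotype, table and library type (poly(A) RNA in the Cx3cr1-KO labels, total RNA in the others) coincide and cannot be told apart, so levels of different lines are only set side by side. Between the astrocyte and heterozygous lines, cell type coincides with table, transgene, tamoxifen and depth. In tests of enrichment between these lines they cannot be told apart either. Apart from the 5 Cx3cr1-KO mice and heterozygous mice 14 and 15, the labels do not tie the 2 groups to shared animals. The main tests treated every library as independent, although pieces share mice and each piece gave both fractions. Their p-values measure the spread between libraries, not between animals.

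In canonical Wnt signalling, beta-catenin is continuously degraded by a complex that includes Axin and Apc. When a Wnt ligand binds Frizzled and Lrp receptors the complex is held back, beta-catenin reaches the nucleus and binds TCF/LEF proteins, and their target genes are transcribed. Several targets are brakes on the pathway. In developing brain this route is known for its part in vessel and barrier formation, in progenitor growth and in patterning of the hippocampus and thalamus, and Lef1 is known to be needed for the dentate gyrus in mice. Ctnnb1 also links cadherins to the cytoskeleton, so its RNA level is not a readout of signalling.

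For 7 of the 9 genes, all but Apcdd1 and Znrf3, promoter windows from RefSeq, build GRCm38.p6, were read (13 windows). These windows ran from 250 bases before to 50 bases after an annotated start. They were searched on both strands for the TCF/LEF core in its form AACAAAG (reverse complement CTTTGTT), its form ATCAAAG (reverse complement CTTTGAT), its form TACAAAG (reverse complement CTTTGTA) and its form TTCAAAG (reverse complement CTTTGAA). A match was present in 1 of 13 windows, against 16.9% of all 32851 windows of that length. The match, TACAAAG, begins 147 bases before annotated start 4 of Lef1. The windows of starts 1 and 4 of Lef1, the member whose deprivation effect differed between genotypes, and that of Axin2, the target most often used to read the pathway, are shown 5′ to 3′ with the match in capitals, and all are on the plus strand.
Lef1 start 1, chr3:131110047-131110346: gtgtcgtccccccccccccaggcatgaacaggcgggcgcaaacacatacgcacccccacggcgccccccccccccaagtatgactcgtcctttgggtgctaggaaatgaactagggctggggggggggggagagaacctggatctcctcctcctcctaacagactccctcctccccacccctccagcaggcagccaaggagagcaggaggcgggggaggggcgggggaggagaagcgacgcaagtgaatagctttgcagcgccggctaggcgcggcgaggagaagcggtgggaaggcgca
Lef1 start 4, chr3:131156044-131156343: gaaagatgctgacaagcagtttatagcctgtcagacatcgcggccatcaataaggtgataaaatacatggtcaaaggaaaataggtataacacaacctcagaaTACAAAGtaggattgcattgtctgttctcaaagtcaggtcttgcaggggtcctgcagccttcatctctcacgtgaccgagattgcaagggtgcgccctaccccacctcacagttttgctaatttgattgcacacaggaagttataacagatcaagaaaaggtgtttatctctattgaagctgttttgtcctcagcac
Axin2, chr11:108920099-108920398: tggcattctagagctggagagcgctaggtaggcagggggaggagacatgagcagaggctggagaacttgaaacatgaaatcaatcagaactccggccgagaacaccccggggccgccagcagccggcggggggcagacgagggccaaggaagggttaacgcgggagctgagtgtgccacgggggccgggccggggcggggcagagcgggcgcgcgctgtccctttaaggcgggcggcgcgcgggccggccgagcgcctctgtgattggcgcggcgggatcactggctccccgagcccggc
The letters of the other 3 TCF/LEF forms were not found in the windows of the 7 genes, which describes these short windows and not the factors' binding elsewhere.

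Scaled by merged exon length (GENCODE vM21, GRCm38), Ctnnb1 was the most abundant member in every line and fraction, Znrf3 the next and Rnf43 the least abundant. Ctnnb1 averaged 50.0 ± 2.99 CPM per kb in astrocyte bound RNA (SD, n = 10), 69.3 in Cx3cr1-KO bound RNA and 75.7 in heterozygous bound RNA. Znrf3, a membrane ubiquitin ligase that removes Frizzled from the cell surface, averaged 12.5, 7.33 and 7.24 CPM per kb in the same order of lines. Axin2, Apcdd1, Nkd1, Tcf7 and Tcf7l1 followed between 1.005 and 4.10 CPM per kb, and their ranges over libraries overlapped in many pairs, so their order among themselves is not settled. Lef1 averaged 0.364 to 0.863 CPM per kb and Rnf43, the paralogue of Znrf3, 0.187 to 0.460 CPM per kb. The ranges of Lef1 and Rnf43 overlapped in each of the 6 combinations of line and fraction. The fewest counts in any library were 34 for Lef1 and 17 for Rnf43, so single values of these genes carry large counting error.

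**Figure D1:**
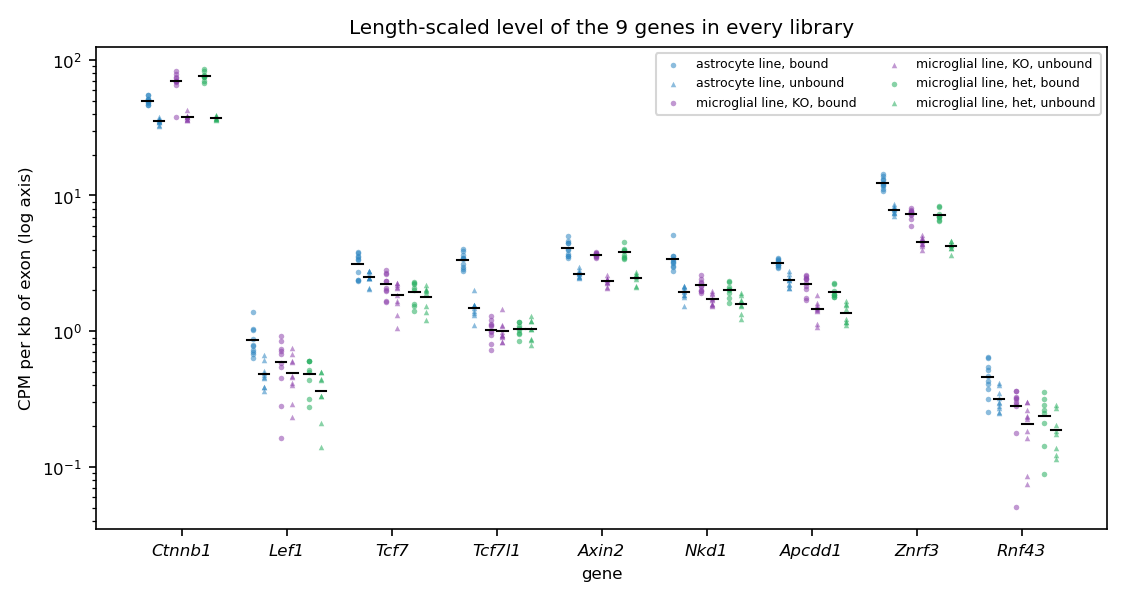
Level of each gene in CPM per kb of exon (log axis) in every library, by line and fraction, with circles for bound and triangles for unbound RNA and black bars for means. Ctnnb1 lies highest, Znrf3 next, and Lef1 and Rnf43 lowest in all 6 combinations.

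Fragments could be shared with overlapping genes, because the sources used here do not say whether counting used strand. Ctnnb1 (chr9:120929216-120960507, plus strand) shares 14.6% of its exon bases with Ulk4 on the opposite strand and 0.443% with Mir7090 on its own strand, and Lef1 (chr3:131110471-131224356, plus strand) shares 13.7% with the antisense gene Gm43352. Tcf7l1 (chr6:72626378-72789254, minus strand) shares 4.56% with Gm15401, and Axin2 (chr11:108920349-108950783, plus strand) shares 3.8% with Gm11670. Tcf7 (chr11:52252371-52283014), Nkd1 (chr8:88521354-88594884), Apcdd1 (chr18:62922231-62961179), Znrf3 (chr11:5276324-5444847) and Rnf43 (chr11:87662722-87735539) share no exon base with another annotated gene.

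All 9 members were higher in astrocyte-bound RNA than in unbound RNA, 5 of 9 were higher in bound RNA of the Cx3cr1-KO line and 6 of 9 in that of the heterozygous line, and no member was lower. The tests used edgeR's quasi-likelihood F test with Benjamini-Hochberg adjustment over all genes tested at 0.05, as do all adjusted p-values except where DESeq2 is named. Of all genes tested in the astrocyte line 59.1% were called, 31.5% as higher and 27.6% as lower. The shares were 61.9%, 31.6% and 30.4% in the Cx3cr1-KO line and 62.6%, 31.8% and 30.8% in the heterozygous line. In such bulk RNA, fewer cells of a type and less RNA per cell cannot be told apart. The median log2 ratio of the 9 members was 0.63, 0.43 and 0.44 in the astrocyte, Cx3cr1-KO and heterozygous lines, beside medians over all genes of 0.03, -0.01 and -0.01.

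Ctnnb1 had 239.8 to 284 CPM in bound and 169.7 to 196.5 CPM in unbound RNA of the astrocyte line, with no overlap. In the microglial lines its bound level was 197 to 430 CPM (Cx3cr1-KO) and 347 to 444 CPM (heterozygous), against 186 to 221 CPM and 186 to 203 CPM in unbound RNA. The log2 enrichment was 0.50 ± 0.039 (SE) in the astrocyte line, 0.87 ± 0.089 in the Cx3cr1-KO line and 1.02 ± 0.050 in the heterozygous line. The Cx3cr1-KO bound control library of mouse 18 stood apart with 197 CPM, while the other 9 bound libraries of that line held 339.9 CPM or more. Its microglial marker sum was 306 CPM, within the 93.7 to 349 CPM of the other bound Cx3cr1-KO libraries, but it had the fewest counts of these libraries (35792651) and the highest share of mitochondrial rRNA, at 3.53% against 1.41% to 2.16% in the other 9. The enrichment of Ctnnb1 was smaller in the astrocyte line than in the heterozygous line by 0.44 ± 0.061 on the log2 scale (astrocyte minus heterozygous -0.44, adjusted p = 1.82e-07), whereas the median of all genes in that difference was 0.14 and 41.8% of genes passed the test, 24.7% as higher and 17.1% as lower.

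Among the DNA-binding partners the lines differed most for Tcf7l1, which is known mainly as a repressor of Wnt targets in the absence of beta-catenin. In the 10 astrocyte pieces bound Tcf7l1 ran from 10.9 to 15.8 CPM, and its ratio to the unbound fraction was 1.91 to 2.69. In the Cx3cr1-KO line the ratio was above 1 in 6 of 10 pieces and in the heterozygous line in 4 of 8. The log2 enrichment of Tcf7l1 was 1.17 ± 0.085 in the astrocyte line (adjusted p = 2.72e-12), 0.03 ± 0.11 in the Cx3cr1-KO line and -0.00081 ± 0.098 in the heterozygous line. Tcf7l1 was thus the member with the largest enrichment in astrocytes and the smallest in both microglial lines. The astrocyte minus heterozygous difference was 1.25 ± 0.13 (adjusted p = 1.91e-10). Beside it, 9 of 10 radial glia and cycling-cell markers were higher in astrocyte-bound RNA (median 0.88), against 5 of 10 in the Cx3cr1-KO line and 7 of 10 in the heterozygous line. Their part in the Tcf7l1 result was not tested.

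Lef1, the partner that mostly activates targets, had a log2 enrichment of 0.82 ± 0.13 in the astrocyte line, where bound exceeded unbound in 10 of 10 pieces. It was 0.28 ± 0.20 in the Cx3cr1-KO line (8 of 10 pieces, adjusted p = 0.237) and 0.44 ± 0.16 in the heterozygous line (7 of 8 pieces, adjusted p = 0.0174). Tcf7, best known from T cells, was enriched by 0.35 ± 0.10 in the astrocyte line (7 of 10 pieces), and its values of 0.26 ± 0.13 in the Cx3cr1-KO line and 0.12 ± 0.10 in the heterozygous line did not pass the test. T-cell markers summed to 3.90 to 9.975 CPM in bound libraries of the 3 lines. With the piece of cortex that gave both fractions as a block, Lef1 (0.23, adjusted p = 0.0276), Tcf7 (0.27, adjusted p = 0.0142) and Rnf43 (0.43, adjusted p = 0.00895) passed the test in the Cx3cr1-KO line, making 8 of 9 members. Without the block 5 of 9 members and 61.9% of all genes passed there, 31.6% as higher. The share of all genes called with the block is not given here, so the larger member count has no baseline. The same block brought the astrocyte minus heterozygous difference of Lef1 to an adjusted p of 0.0398, against 0.0806 without it (0.46 ± 0.21).

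Axin2, a scaffold of the degradation complex induced by the pathway, was higher in bound RNA in every piece of the 3 lines. Its bound over unbound ratio ran from 1.30 to 1.81 in the astrocyte line, 1.38 to 1.78 in the Cx3cr1-KO line and 1.36 to 1.72 in the heterozygous line. The log2 enrichments were 0.63 ± 0.069, 0.65 ± 0.049 and 0.63 ± 0.065, and the astrocyte minus heterozygous difference was 0.07 (95% interval -0.12 to 0.26). Znrf3 (0.66, 0.68 and 0.77) and Apcdd1, a membrane-bound inhibitor of Wnt receptors (0.42, 0.62 and 0.51), were also higher in bound RNA in every piece of the 3 lines. Of 12 endothelial markers, 4 were higher in bound RNA of the astrocyte line, 8 in the Cx3cr1-KO line and 5 in the heterozygous line (medians 0.35, 0.40 and 0.35). Mitochondrial rRNA took 1.41% to 3.53% of bound counts in the microglial lines, against 20.5% to 31.1% of unbound counts. In the astrocyte line it took 1.4% to 2.36% of bound and 3.5% to 6.11% of unbound counts. The part of endothelial cells or mitochondrial rRNA in these enrichments, or in their differences between lines, was not tested. Nkd1, which binds Dishevelled and dampens signalling, was enriched by 0.80 ± 0.083 in the astrocyte line and by 0.34 ± 0.070 and 0.33 ± 0.096 in the Cx3cr1-KO and heterozygous lines. The astrocyte minus heterozygous difference of Nkd1 was 0.55 ± 0.13 (adjusted p = 5.70e-04), above the 0.14 median of all genes. Rnf43 was enriched in the astrocyte line (0.54 ± 0.15, adjusted p = 0.00354), and its values of 0.43 ± 0.27 and 0.34 ± 0.19 in the Cx3cr1-KO and heterozygous lines did not pass the test.

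**Figure D2:**
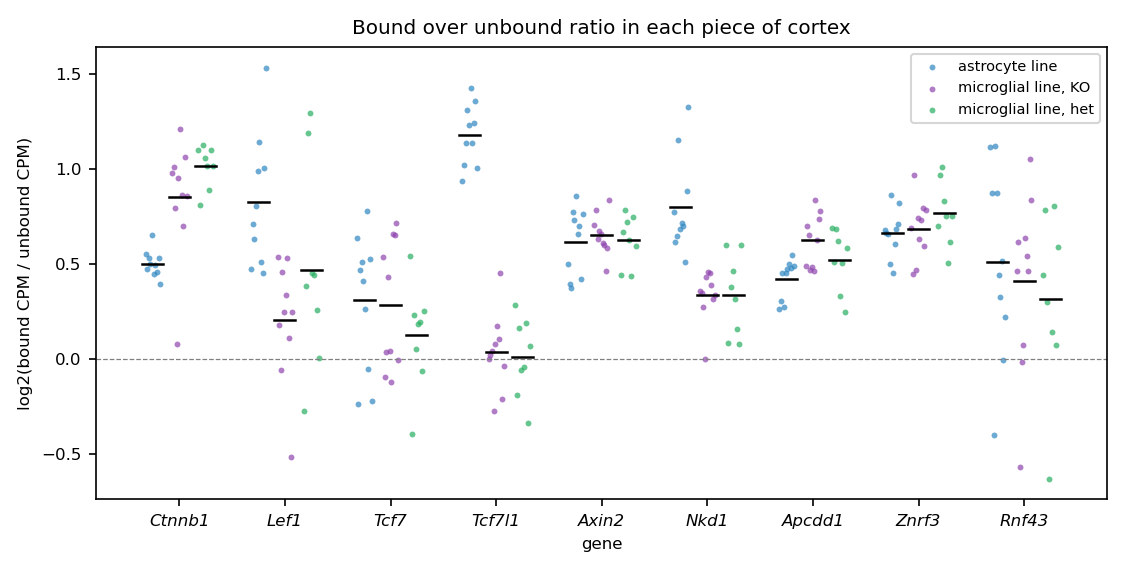
Log2 of bound over unbound CPM in each piece of cortex for the 9 genes, by line, with bars for the means and a dashed line at equal levels. Tcf7l1 separates the astrocyte pieces, at ratios of 1.91 to 2.69, from the pieces of both microglial lines, which scatter around the dashed line.

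Between the microglial genotypes no member's difference in enrichment passed the test: 0 of 20676 genes did for Cx3cr1-KO minus heterozygous by edgeR, with 712 genes at an unadjusted p under 0.05. The differences were -0.14 for Ctnnb1 (95% interval -0.37 to 0.09), -0.16 for Lef1 (-0.73 to 0.41) and 0.03 for Axin2 (-0.13 to 0.18).

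Other genes of the pathway were read from 4 lists. Of the degradation complex, 8 of 13 tested genes were higher and 3 lower in astrocyte-bound RNA, against 10 higher and 2 lower in both the Cx3cr1-KO and the heterozygous line. Apc2, a neural relative of Apc, had the smallest p of all listed pathway genes in each line, with log2 enrichments of 1.79 ± 0.061, 2.26 ± 0.11 and 2.41 ± 0.071 in the astrocyte, Cx3cr1-KO and heterozygous lines. Apc followed in the heterozygous line (1.88 ± 0.081), and the kinase Hipk2 was enriched by 0.91, 1.03 and 1.03. The coactivator Ep300 was enriched by 1.03 ± 0.055 and 1.16 ± 0.054 in the Cx3cr1-KO and heterozygous lines, and the tankyrase Tnks2, which marks Axin for destruction, by 0.98 ± 0.058 in the Cx3cr1-KO line. Of the TCF cofactors 10 of 17 were higher and 3 lower in the astrocyte line, 14 and 1 in the Cx3cr1-KO line, and 12 and 2 in the heterozygous line. Receptor-side genes gave 9 higher and 2 lower of 15 in the astrocyte line, against 7 and 2 in each microglial line. Of further targets, 7 of 11 were higher and 1 lower in the astrocyte line, 3 of 12 higher and 0 lower in the Cx3cr1-KO line, and 3 of 11 higher and 1 lower in the heterozygous line.

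The astrocyte minus heterozygous difference was largest in significance for Tnfrsf19 (0.97 ± 0.070), a receptor gene induced by beta-catenin, Sox9 (1.11 ± 0.082), a glial transcription factor, Tspan12 (1.34 ± 0.10), a co-receptor for Norrin, and Ndp (1.73 ± 0.14), which encodes Norrin itself. Sox9 and Tnfrsf19 were also among the most clearly enriched pathway genes within the astrocyte line (0.97 ± 0.052 and 0.81 ± 0.046).

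After whisker removal 1 member passed the edgeR test, Lef1 in unbound RNA of the heterozygous line. DESeq2 called Lef1, Tcf7 and Rnf43 in bound RNA of that line, where edgeR called 10.3% of 18001 genes and 0 members. The share of all genes called there by DESeq2 is not given here, so its member calls have no baseline. In the astrocyte line 0 of 17685 genes (bound) and 0 of 16846 genes (unbound) passed the edgeR test, with 1067 and 1043 genes at an unadjusted p under 0.05, and DESeq2 called 7 and 0 genes. The members' log2 fold changes, deprived over control, lay between -0.49 (Rnf43, 95% interval -1.01 to 0.02) and 0.24 (Lef1, -0.15 to 0.63) in bound RNA and between -0.20 (Apcdd1, -0.34 to -0.06) and 0.16 (Nkd1) in unbound RNA. Beta-catenin RNA was narrowly bounded, at -0.01 (-0.15 to 0.14) in astrocyte-bound RNA. Axin2 averaged 23.4 ± 3.19 CPM in deprived and 21.7 ± 2.77 CPM in control astrocyte-bound libraries (SD, n = 5 each).

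**Figure D3:**
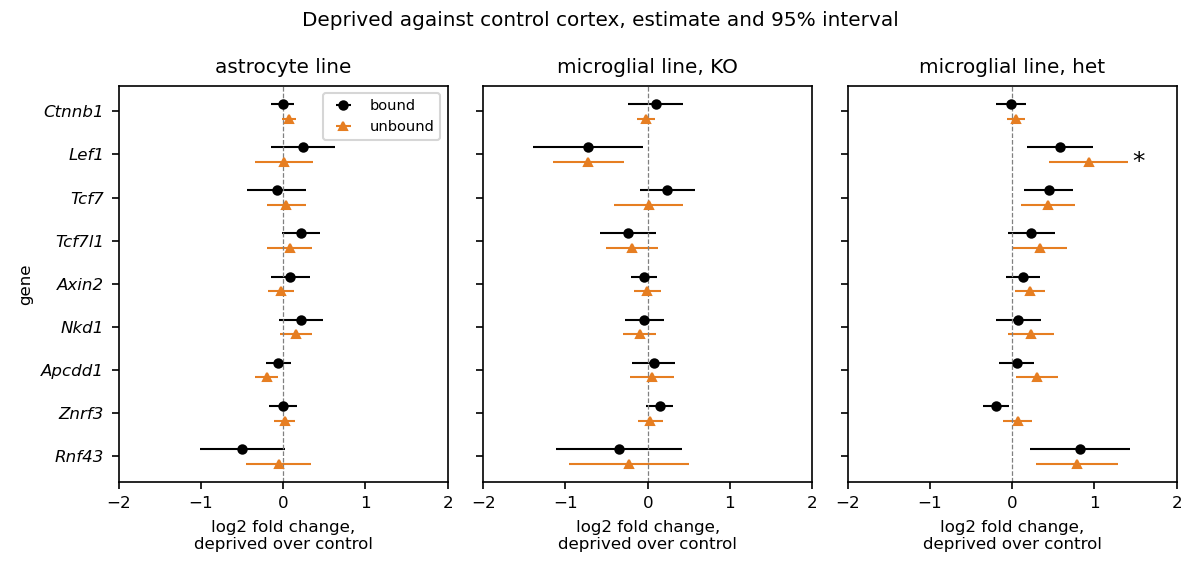
Log2 fold change, deprived over control, with its 95% interval for the 9 genes in bound (circles) and unbound (triangles) RNA of each line; the asterisk marks the single adjusted p below 0.05. Lef1 lies below 0 in the Cx3cr1-KO line (-0.72 in both fractions) and above 0 in the heterozygous line (0.58 in bound and 0.93 in unbound RNA).

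Lef1 was the member with the largest contrast between the 2 microglial genotypes. In unbound RNA of the Cx3cr1-KO line it had 2.06, 4.14, 2.57, 4.07 and 3.55 CPM in deprived cortex of mice 7, 12, 18, 19 and 22, against 5.32, 6.63, 5.95, 5.20 and 3.65 CPM in control cortex of the same mice. The deprived side was the lower one in 5 of 5 mice, most clearly in mice 7 and 18, and the groups overlapped through mouse 22. In unbound RNA of the heterozygous line Lef1 had 3.88, 4.44, 4.42 and 3.91 CPM in deprived pieces 14L, 15L, 17L and 17R, against 2.95, 1.23, 1.85 and 2.92 CPM in control pieces 14R, 15R, 21L and 21R. Here every deprived piece lay above every control piece, and how many of all genes separate in this way was not counted.

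The log2 fold change of Lef1 in unbound RNA was -0.72 ± 0.20 in the Cx3cr1-KO line (unadjusted p = 0.00272, adjusted p = 0.693) and 0.93 ± 0.22 in the heterozygous line (adjusted p = 0.0342). In the heterozygous line 3.75% of 18073 genes passed the test (2.7% higher and 1.05% lower), and 1 of 9 members did; in the Cx3cr1-KO line 0.038% of 18421 genes (7 genes, all lower) and 0 members did. With the mouse as a block, 3 genes passed in the Cx3cr1-KO line and Lef1 stood at -0.74 (adjusted p = 0.308). The test of the difference itself, Cx3cr1-KO minus heterozygous, gave -1.65 ± 0.33 for Lef1 (adjusted p = 0.0176, 1.79% of 19278 genes called, 1.28% as lower). With the replicate number as a block it was -1.72 (adjusted p = 0.0106, 960 genes called in place of 345). That block pairs heterozygous pieces 17L with 21L and 17R with 21R, which come from different mice. All 9 members were below 0 in this difference without the block, with a median of -0.32 beside 0.00398 over all genes, and of the 9 Lef1 alone passed the test. Above 0 there were 0 of 12 astrocyte, 0 of 12 microglial, 2 of 12 endothelial and 1 of 10 meningeal and mural markers. Their medians were -0.35, -0.47, -0.39 and -0.76. Of neuron markers 8 of 12 lay above 0 (median 0.07), and of oligodendrocyte precursor markers 5 of 10. In bound RNA 3 of 9 members lay above 0 (median -0.18).

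These Lef1 calls rest on few pieces. Without the conflicting pieces 17R and 21L the heterozygous unbound value was 0.88 (adjusted p = 0.137), with groups taken from the side letters 0.44 (adjusted p = 0.869), and with mice 14 and 15 alone 1.03 (adjusted p = 0.2702). Leaving out single libraries ended the call in 6 of 8 fits (adjusted p from 0.0509 to 0.128 without control 15R or 21L or any of the 4 deprived pieces) and kept it without control 14R or 21R. The difference between genotypes kept its direction and lost its call without 17R and 21L (-1.60, adjusted p = 0.0615), with side letters (-1.16, adjusted p = 0.546), with mice 14 and 15 alone (-1.75, adjusted p = 0.145) and without Cx3cr1-KO mice 7 and 18 (-1.33, adjusted p = 0.0834). It kept the call in 18 of 18 fits that left out a single library. Without mice 7 and 18 the Cx3cr1-KO value itself was -0.41 ± 0.19. These mice had the lowest deprived Lef1 in both fractions, so a smaller fall without them follows from that choice.

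In bound RNA Lef1 had 1.44, 5.999, 2.46, 4.83 and 5.12 CPM in deprived cortex of Cx3cr1-KO mice 7, 12, 18, 19 and 22, against 6.32, 7.499, 8.16, 6.56 and 3.95 CPM in their control cortex. Deprived cortex was lower in 4 of 5 mice, and the log2 fold change was -0.72 ± 0.31 (unadjusted p = 0.0359, adjusted p = 0.9998, with 0.00546% of 18324 genes called, all lower), and -0.20 without mice 7 and 18. In the heterozygous line bound Lef1 had 5.27, 5.30, 4.43 and 5.35 CPM in deprived pieces 14L, 15L, 17L and 17R, against 3.85, 2.80, 4.54 and 2.42 CPM in control pieces 14R, 15R, 21L and 21R. The groups overlapped only through 17L and 21L, and the log2 fold change of 0.58 ± 0.19 did not pass the test (adjusted p = 0.0628), but did without control piece 21L (0.76, adjusted p = 0.0244). Without both 17R and 21L it was 0.74 (adjusted p = 0.0605). The genotype difference of Lef1 in bound RNA was -1.31 ± 0.42 (adjusted p = 0.122, 0.51% of 19601 genes called, 0.316% as lower, 100 genes, and 694 with the replicate block). DESeq2 put it at an adjusted p of 0.0401, and without mice 7 and 18 it was -0.77 (adjusted p = 0.296). In the astrocyte line Lef1 averaged 8.27 ± 2.44 CPM in deprived and 6.90 ± 1.38 CPM in control bound libraries, and 4.27 ± 0.795 and 4.21 ± 1.02 CPM in deprived and control unbound libraries (SD, n = 5 each).

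**Figure D4:**
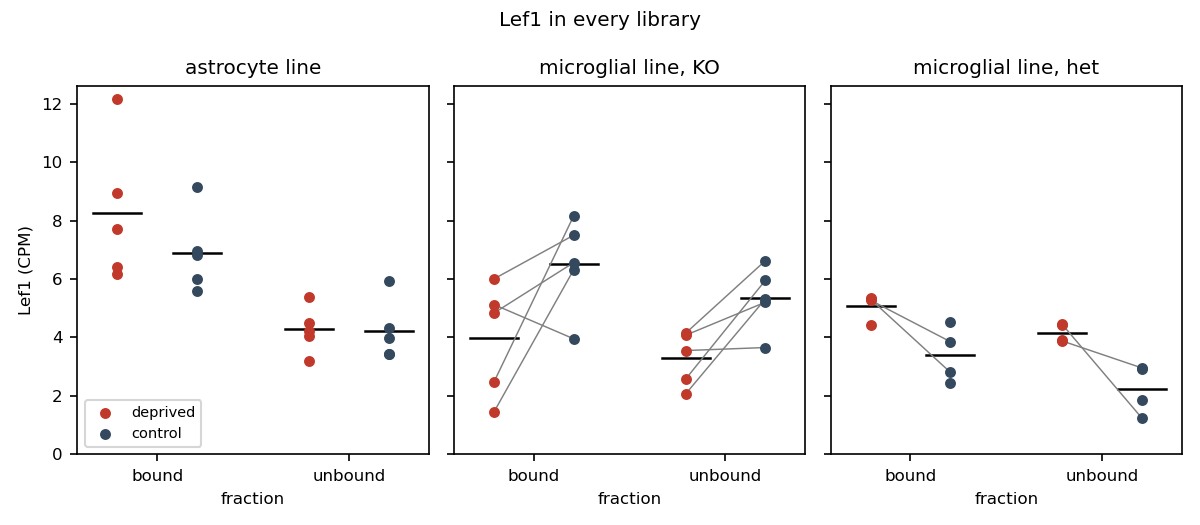
Lef1 in CPM in every library, deprived and control, by fraction and line, with bars for means and grey lines joining both hemispheres of a mouse in the microglial lines. In unbound RNA the deprived Cx3cr1-KO pieces lie below the control of the same mouse in 5 of 5 mice, and the deprived heterozygous pieces (3.88 to 4.44 CPM) lie above every control piece.

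Marker genes of the hippocampus and the thalamus were read beside Lef1. The 10 dentate and hippocampal markers summed, in deprived unbound Cx3cr1-KO libraries, to 749.7 CPM in mouse 7 and 762 CPM in mouse 18, the pieces lowest in Lef1, and to 1466 to 1879 CPM in the other 3 mice, against 1013 to 1687 CPM in control libraries. None of the 10 passed the edgeR test in that line, and their median log2 fold change was -0.17. In the heterozygous line the sum was 1358 to 1780 CPM in deprived and 761 to 887 CPM in control unbound libraries, and 7 of 10 markers passed the test as higher, or 5 of 10 without pieces 17R and 21L. Prox1, which marks dentate granule cells, was higher there by 1.36 ± 0.098 on the log2 scale, and by 1.37 without these pieces. The 12 thalamic markers summed to 318 to 370 CPM in deprived and 383 to 662 CPM in control unbound Cx3cr1-KO libraries, with no overlap, and 1 of 10 tested passed as lower. The order was the other way in the heterozygous line, with 353 to 372 CPM in deprived and 294 to 326 CPM in control libraries, and 5 of 10 tested passed as higher, or 4 of 10 without pieces 17R and 21L. Tcf7l2, the TCF factor of the thalamus, was the thalamic marker called, among 7 genes in all, in unbound Cx3cr1-KO RNA (-2.89 ± 0.36, adjusted p = 0.0180). In heterozygous unbound RNA Tcf7l2 was at 0.20 ± 0.10 and did not pass (adjusted p = 0.337). The thalamic markers called there were Zic4, Zic1, Lhx9, Calb2 and Ntng1, none of which passed in unbound Cx3cr1-KO RNA. Of the 10 tested there, 9 lay above 0, and Rora was at -0.20 (adjusted p = 0.0718).

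In the test of the difference between genotypes, 7 of 12 thalamic and 2 of 10 dentate and hippocampal markers passed as lower beside Lef1 in unbound RNA, with medians of -2.72 and -1.03. In bound RNA 5 of 12 thalamic and 0 of 10 dentate and hippocampal markers did. Without pieces 17R and 21L the counts were 6 and 2 in unbound RNA and 1 and 0 in bound RNA. In heterozygous unbound RNA all 12 endothelial, all 12 microglial, all 12 astrocyte and all 10 meningeal and mural markers lay above 0 (medians 0.33, 0.33, 0.27 and 0.86), of which 0, 1, 4 and 0 passed the test. No more than 2 of the 12 thalamic markers and none of the dentate and hippocampal markers were at 0 counts in any library of the microglial lines. In the astrocyte line, in which no gene was called, the dentate and hippocampal sum was 1922 to 2126 CPM (median 2026) in deprived unbound libraries. It was 1078 to 1916 CPM (median 1839) in control unbound libraries. Of the 9 markers tested there 0 passed, and unbound Lef1 was at 0.01. The part of tissue composition in the Lef1 result was not tested.

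**Figure D5:**
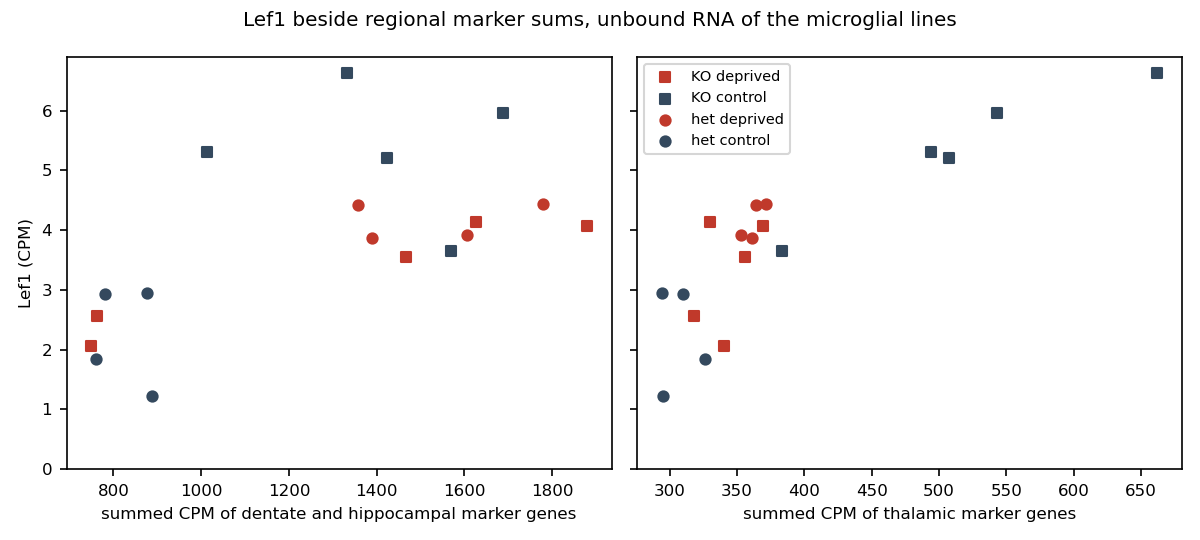
Lef1 (CPM) against the summed CPM of dentate and hippocampal markers and of thalamic markers in each unbound library of the microglial lines, with squares for Cx3cr1-KO and circles for heterozygous libraries and the deprived libraries in red. Control Cx3cr1-KO libraries extend to 662 CPM of thalamic markers, and the 2 deprived Cx3cr1-KO libraries with the least Lef1 (2.06 and 2.57 CPM) lie at 749.7 and 762 CPM of dentate and hippocampal markers.

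The other DNA-binding partners and Rnf43 had positive log2 fold changes in the heterozygous line that did not pass the test. Tcf7 averaged 5.85 ± 0.248 CPM in deprived and 4.32 ± 0.693 CPM in control bound libraries (SD, n = 4 each), and its log2 fold change was 0.44 ± 0.14 (adjusted p = 0.0543). In this comparison 10.3% of 18001 genes passed the test, 5.52% as higher and 4.76% as lower, and 0 of 9 members did. An unadjusted p under 0.05 was reached by 4722 genes. In unbound RNA Tcf7 was at 0.43 ± 0.15 (adjusted p = 0.145), and 0.60 (adjusted p = 0.0168) without control piece 14R. Rnf43, which restrains Wnt receptors at the membrane, had 1.72 to 2.33 CPM in deprived and 0.588 to 1.64 CPM in control bound libraries (0.82 ± 0.28, adjusted p = 0.0797). It passed the edgeR test with the replicate block (0.89, adjusted p = 0.0389), with all 4 groups in the fit (adjusted p = 0.0404) and without the low-count filter (adjusted p = 0.0207). The block pairs 17L with 21L and 17R with 21R, which come from different mice. In unbound RNA the Rnf43 groups overlapped, at 1.15 to 1.89 CPM in deprived and 0.757 to 1.21 CPM in control libraries (0.79 ± 0.23, adjusted p = 0.0799). The DESeq2 calls in bound RNA of this line had adjusted p-values of 0.0272 for Lef1, 0.0294 for Tcf7 and 0.0397 for Rnf43. Without pieces 17R and 21L bound Tcf7 was at 0.43 (adjusted p = 0.166) and bound Rnf43 at 0.59 (adjusted p = 0.245). In the same bound libraries 7 of 12 microglial, 5 of 12 astrocyte and 6 of 9 tested dentate and hippocampal markers were higher (4, 3 and 6 without pieces 17R and 21L), and their part in these values was not tested. Tcf7l1 was at 0.23 ± 0.13 in bound and 0.34 ± 0.15 in unbound heterozygous RNA, and at 0.16 and 0.29 without pieces 17R and 21L.

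In the Cx3cr1-KO line Tcf7l1 averaged 3.73 ± 0.545 CPM in deprived and 4.36 ± 0.724 CPM in control bound libraries (SD, n = 5 each), with the deprived side lower in 5 of 5 mice. In unbound RNA it was lower in 4 of 5 mice, and its log2 fold changes of -0.24 ± 0.16 in bound and -0.19 ± 0.15 in unbound RNA did not pass the test. The Cx3cr1-KO minus heterozygous differences of Tcf7l1, -0.47 ± 0.20 in bound and -0.53 ± 0.22 in unbound RNA, did not pass either (adjusted p = 0.238 and 0.209). Tcf7 was at 0.24 ± 0.16 in bound and 0.01 ± 0.20 in unbound Cx3cr1-KO RNA. In the same line Rnf43 had 1.17, 2.395, 0.332, 2.08 and 2.14 CPM in deprived bound libraries of mice 7, 12, 18, 19 and 22, against 1.90, 1.86, 1.98, 2.36 and 2.13 CPM in control libraries. Mice 7 and 18 were again the low ones on the deprived side. The log2 fold change was -0.35 ± 0.36, and 0.04 without these mice, a shift that follows from leaving out the lowest deprived values.

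Of the remaining targets, Znrf3 had a higher bound level on the deprived side in 5 of 5 Cx3cr1-KO mice (61.0 ± 1.76 CPM in deprived and 54.8 ± 5.09 CPM in control libraries), with a log2 fold change of 0.14 ± 0.075. In the heterozygous line deprived bound libraries had 51.4 to 55 CPM and control libraries 55.6 to 66.3 CPM, with a log2 fold change of -0.19 ± 0.074 (-0.17 without pieces 17R and 21L). Neither value passed the test (adjusted p = 0.9998 in the Cx3cr1-KO line and 0.1099 in the heterozygous line). The genotype difference of 0.33 ± 0.10 did not pass the edgeR test (adjusted p = 0.106) and did pass DESeq2's (0.36, adjusted p = 0.0400). Axin2, the usual readout, was at -0.04 ± 0.074 in bound and -0.00456 ± 0.077 in unbound Cx3cr1-KO RNA, and at 0.13 ± 0.098 in bound and 0.22 ± 0.083 in unbound heterozygous RNA, or 0.18 and 0.23 without pieces 17R and 21L. Nkd1 lay between -0.10 and 0.23, and Apcdd1 between 0.05 and 0.30, over both microglial lines and fractions. Apcdd1 passed in heterozygous unbound RNA without control piece 14R (0.42, adjusted p = 0.0265). The 4 log2 fold changes of Ctnnb1 in the microglial lines lay between -0.02 and 0.10.

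Over the pathway lists, deprivation calls in the microglial lines were found in the heterozygous line. In bound RNA 4 of 13 degradation-complex genes, 5 of 17 TCF cofactors and 1 of 15 receptor-side genes were lower, and 1 of 11 further targets was higher, beside 4.76% of all genes called as lower and 5.52% as higher. Without pieces 17R and 21L 2 of the 17 TCF cofactors were lower and no other gene of these lists was called. The corepressor Tle3 (-0.39 ± 0.073), the beta-catenin adaptor Bcl9l (-0.36 ± 0.071), the kinase Csnk1e (-0.36 ± 0.078) and Nlk (-0.32 ± 0.073), a kinase that phosphorylates TCF/LEF proteins, had the smallest p. Without these pieces Tle3 (-0.36, adjusted p = 0.0385) and Bcl9l (-0.41, adjusted p = 0.0236) passed the test, and Csnk1e (-0.30) and Nlk (-0.28) did not (adjusted p = 0.0764 for both). Ccnd1, a cell-cycle gene often counted as a Wnt target, was the further target called as higher in bound RNA (0.44 ± 0.10, adjusted p = 0.0167). It was also higher in unbound RNA (0.31 ± 0.078, adjusted p = 0.0444). Without these pieces it passed in neither bound (0.37, adjusted p = 0.106) nor unbound RNA (0.33, adjusted p = 0.114). With groups taken from the side letters 0 genes were called in either fraction of this line, in place of 1850 in bound and 678 in unbound RNA. In the genotype difference of bound RNA, Rspo4, a secreted enhancer of Wnt signalling, was the only listed pathway gene called (lower, adjusted p = 0.0283, or 0.0794 without pieces 17R and 21L), on counts of 0 to 3 per deprived and 4 to 15 per control Cx3cr1-KO library and of 1 to 17 per deprived and 0 per control heterozygous library.

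Likeness of pattern was read as the lowest of the 3 Pearson correlations of log2 CPM over unbound libraries (10 astrocyte, 10 Cx3cr1-KO and 8 heterozygous), among 16482 genes. The libraries share tissue, depth and composition differences, so these values are descriptions. Lef1 was most like Slc22a8, an organic anion transporter (lowest r = 0.73), then Saxo2 (0.71) and Fundc1 (0.67). Apcdd1 was most like Tek, the endothelial angiopoietin receptor (0.82), then Tmed10 (0.78) and Slc38a5 (0.77). Tcf7 was most like Cldn5, a tight-junction gene of brain endothelium (0.63), Tubb6 (0.58) and Rhoj (0.58). Tcf7l1 was most like Sufu, a hedgehog regulator (0.76), Vim (0.74) and Ticrr (0.73). Rnf43 was most like Fgf2 (0.78), Daam2 (0.76) and Rassf4 (0.73), and Nkd1 most like Fam114a1 (0.76), She (0.73) and Slc7a11 (0.70). Znrf3 was most like Sgpl1 (0.69), Cd248 (0.68) and Plppr5 (0.65). Ctnnb1 (Eif3l at 0.70, Rpl37rt at 0.70 and Cpsf3 at 0.69) and Axin2 (Sipa1l3 at 0.61, Cdc42ep1 at 0.58 and Rpl10-ps1 at 0.57) completed the set. None of the 9 members was among the 3 genes most like another member.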

How the data were processed

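Counts of reads per Ensembl gene, deposited by the authors as 3 tables (47971, 55385 and 45682 genes for the astrocyte, Cx3cr1-KO and heterozygous lines), were used as raw counts. The tools named in the submitters' processing notes are HISAT2 (version 2.2.0), featureCounts (version 2.0.0), Trim Galore (version 0.6.4) and cutadapt (version 2.9), with GRCm38 and mm10; their settings and the strand are not given in the sources used here. Per the labels' protocols, RNA had an integrity number above 9 and cDNA was made from 1 to 5 ng with the NuGEN Ovation V2 kit.

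Groups were taken from the titles. Genes were filtered with filterByExpr, scaled by TMM and tested with edgeR 4.0.16 (R 4.3.3) for each of 13 comparisons, with p-values adjusted over all genes tested (threshold 0.05). SE is the log2 fold change over the square root of F. CPM is the count scaled to the TMM-adjusted library size within a table. The script was tested on simulated data, and tests were run again with RLE scaling, no filter, DESeq2 1.42.0, a replicate block, all 4 groups of a line and without doubtful or single libraries. Named were the 9 genes, up to 4 called pathway genes per comparison with the smallest p, and the 3 genes most like each member. The members, lists and tests were chosen with earlier results of these data known. Deviations of both hemispheres of a Cx3cr1-KO mouse correlated at 0.0562 to 0.33, and the labels give them to the same animal, so the mouse number pairs these samples; both fractions of a piece are paired by the piece. Replicate libraries differed by more than sampling noise (lowest chi-square per gene 3.415), so none was counted as a duplicate.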

Additional observations from a re-analysis of the deposited data

Results flagged for a closer look

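Of 108 sets of a gene in a group of libraries, 4 held a library whose gap to the nearest other exceeded Dixon's 95% critical value; chance gives about 1 in 20 sets. Apcdd1 stood at 44.6 CPM in deprived astrocyte-bound library 3 against 38.2 to 39.8 CPM in the others, and at 19.99 CPM in heterozygous unbound control piece 14R against 14.4 to 15.1 CPM. Nkd1 stood at 23.3 CPM in deprived astrocyte-bound library 5 against 13.7 to 16.3 CPM. Lef1 stood at 4.43 CPM in heterozygous deprived bound piece 17L against 5.27 to 5.35 CPM.

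Effects that differed between lines by a test of the difference were the Cx3cr1-KO minus heterozygous deprivation effect on unbound Lef1 (-1.65) and the astrocyte minus heterozygous enrichment of Ctnnb1 (-0.44), Tcf7l1 (1.25) and Nkd1 (0.55).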

How the results depend on the processing

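Of 25 called member results, 101 of 108 values under other settings and 504 of 510 with a library left out kept direction and call, and the others (7 and 6) lost the call, all for Lef1. Of 92 results not called, 16 of 576 and 11 of 1470 values passed the test. Calls counted over all genes moved as follows, and the cause was not tested. Without the low-count filter, deprivation calls were 85 (bound) and 143 (unbound) in place of 0 in the astrocyte line, 28 in place of 1 and 52 in place of 7 in the Cx3cr1-KO line, and 1459 in place of 678 in unbound heterozygous RNA; the genotype difference gave 576 in place of 100 (bound) and 872 in place of 345 (unbound), and the enrichment difference between genotypes 1 in place of 0. DESeq2 gave 7 (astrocyte bound), 11 and 35 (Cx3cr1-KO bound and unbound), 1176 (heterozygous unbound), 734 and 841 (genotype difference, bound and unbound). With the replicate block, deprivation calls in the Cx3cr1-KO line were 2 and 3, and the genotype difference gave 694 and 960. With the piece as block, 8 members in place of 5 were called in Cx3cr1-KO enrichment, for which the share of all genes is not given here. With all 4 groups in the fit, unbound Cx3cr1-KO RNA gave 1. Side letters gave 0 calls in both heterozygous fractions and 2 in each genotype difference. Without 17R and 21L, calls were 741 in place of 1850 (bound) and 294 (unbound), and 5 and 66 for the genotype difference; with mice 14 and 15 alone they were 119, 194, 4 and 17. Without Cx3cr1-KO mice 7 and 18 they were 0 (bound) and 1 (unbound), and 121 for the unbound genotype difference. Members called on deprivation in bound heterozygous RNA were 2 without the filter, 3 by DESeq2, 1 (Rnf43) with the block and 2 with all 4 groups, in place of 0. The shares of all genes called in bound heterozygous RNA under these settings are not given here. In unbound heterozygous RNA the members called were 2 without the filter, in place of 1. They were 0 with side letters, without 17R and 21L, or with mice 14 and 15 alone. Members called in the bound genotype difference were 1 without the filter and 2 by DESeq2; in the unbound one they were 0 with side letters, without 17R and 21L, with mice 14 and 15 alone, and without mice 7 and 18, in place of 1. Leaving out single libraries gave 938 to 2089 calls (0 to 1 members) in bound and 247 to 1141 (0 to 3 members) in unbound heterozygous RNA, 0 to 2 and 0 to 22 in Cx3cr1-KO RNA, 0 to 441 and 69 to 732 for the genotype differences, and 0 to 1 for the enrichment difference between genotypes.

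Heterozygous and astrocyte replicate numbers, apart from mice 14 and 15, name no shared animal; the block there left the call of unbound heterozygous Lef1 in place (0.99, adjusted p = 0.0356). Lef1 and Rnf43, with as few as 34 and 17 counts in a library, are the members most limited by depth.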
